A study of Mus musculus with 9 samples.

Results

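The cytosolic ribosomal protein genes were taken as the rows whose symbol is Rpl, Rps or Rplp followed by a number, together with Rpsa. The kinases of the Rps6k family and rows marked as pseudogenes were left out. The rule found 85 of the 24132 gene symbols in the table, 33 of the small subunit, 49 of the large subunit and the 3 stalk genes Rplp0, Rplp1 and Rplp2. The genes were measured in 9 RIPiT-seq libraries, in which RNA bound to a doubly tagged protein is recovered by purification through a FLAG tag and then an HA tag, and is set against input RNA. The libraries came from 3 lines of mouse embryonic stem cells (ESCs, 129/B6 F1 hybrid, grown without feeders and with LIF), each with 2 immunoprecipitates (IPs) and 1 input. The empty vector line was infected with a lentivirus without tagged WDR5, the WT line with one for FLAG-HA-tagged WDR5, and the F266A line with one for tagged WDR5 carrying the phenylalanine-to-alanine change F266A, made to test the RNA-binding pocket of the protein. All cells were crosslinked with formaldehyde, and the purified RNA was amplified before library construction.

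These lines set the limits of any comparison. The tagged lines were isolated clones picked for a WDR5 level near that of untransduced cells, and the F266A construct is shorter at the N-terminus than the WT construct. A line is therefore a clone, an insertion and a construct together, which cannot be told apart from the mutation. Nothing in the labels says that the 2 IPs of a line came from separate cultures, so p-values measure the spread between these libraries, which may be technical.

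Ribosomal proteins are made in near-equal amounts, because each ribosome holds about the same number of each. Small-subunit proteins (Rps) surround the decoding centre, and large-subunit proteins (Rpl) surround the peptidyl transferase centre and the exit tunnel. The stalk proteins recruit translation factors. Their mRNAs are among the most abundant of growing cells and begin with a 5′ terminal oligopyrimidine (TOP) tract, a C followed by further C and T bases, through which mTOR signalling and Larp1 control their translation. WDR5 is a subunit of MLL histone methyltransferase complexes, and in other cells it is known to occupy the promoters of a subset of ribosomal protein genes.

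The start sites of some members are shown to let the pyrimidine runs near them be seen beside the values of a comparison between lines. They are the 6 members with the smallest p in the comparison of F266A with empty vector IPs among those with a pyrimidine run of at least 7 bases, and the paralogs Rps27l and Rpl7l1, which did not pass the test. Each is the 30 bases from 10 before to 20 after the annotated start (RefSeq, GRCm38.p6), 5′ to 3′ on the gene's strand, with the longest run of C and T in capitals. The capitals of Rpl39l, Rps27l and Rpl7l1 lie wholly before the annotated start and those of Rpl39 begin after it, so a run in this window is not the same as a 5′ terminal tract. Rpl39l entered the test only through the empty vector and WT lines, where its level was high, so its small p is not independent support.
Rpl39l: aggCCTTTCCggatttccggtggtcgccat
Rps27: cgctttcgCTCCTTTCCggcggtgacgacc
Rpl14: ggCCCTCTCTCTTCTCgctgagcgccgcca
Rpl39: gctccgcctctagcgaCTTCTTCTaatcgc
Rpl35a: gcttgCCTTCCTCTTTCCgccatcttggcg
Rpl34: CTTTTCCTCTTCCggggacggtgctcagag
Rps27l: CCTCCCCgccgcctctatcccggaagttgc
Rpl7l1: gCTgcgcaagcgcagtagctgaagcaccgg
The windows lie at chr16:10170218-10170247 (Rpl39l, plus strand), chr3:90213629-90213658 (Rps27, minus), chr9:120571507-120571536 (Rpl14, plus), chrX:37085203-37085232 (Rpl39, minus), chr16:33056472-33056501 (Rpl35a, plus), chr3:130730318-130730347 (Rpl34, minus), chr9:66946076-66946105 (Rps27l, plus) and chr17:46782637-46782666 (Rpl7l1, minus).

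Of the 85 members, 64 had a promoter in the RefSeq table. A run of at least 7 pyrimidines stood in the window of 33 of these 64 (51.6%), of 9 of 67 mitochondrial ribosomal protein genes (13.4%) and of 5551 of all 27025 genes (20.5%). The letters CTTTCC were in the window of 10 members (15.6%) and of 1.52% of all genes. The same letters on the other strand (GGAAAG) were in 0 members and in 1.51% of all genes. Annotated starts are not measured starts, so a tract further from the annotated base was missed.

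The libraries were not alike in depth or in identity. Depth, estimated from the smallest step of the RPKM values, lay between 13400000 and 50200000 mapped reads, and the median member rested on an estimated 1436 to 4432 reads per library. All lines expressed the ESC markers, with Pou5f1 between 36.3 and 81.1 RPKM, and of 8 fibroblast markers 3 (Col3a1, Lum and Dcn) were listed at 0 in every library, while Thy1 (0.391 to 1.55 RPKM) and Fbln1 (0.614 to 2.01 RPKM) were present in all. F266A replicate 1 stood apart from its line. The summed RPKM of 3 Y-linked genes (Ddx3y, Uty and Eif2s3y) was 0.0383 in F266A IP 1, against 7.21 in F266A IP 2 and 4.43 in the F266A input. It was 7.41 to 9.48 in the empty vector line and 0.182 to 0.324 in the WT line. Whether both F266A IPs came from 1 clone is not given in the sources used here. The scores of F266A IP 1 are taken against an input that differs from it in these genes, and the 2 F266A IPs may not be replicates of 1 culture. Medians over all members that compare F266A IPs with other lines are therefore also given without replicate 1, as are some of the counts. Values of single genes and of smaller lists rest on both IPs unless stated.

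Markers of primitive endoderm, an early extraembryonic lineage, also differed. Of 12 markers, 11 were highest in the F266A input among the 3 inputs, and their summed RPKM was 57.1 there and 72.9 in F266A IP 2. The sum was 22 in F266A IP 1, 24.2 to 30.3 in the empty vector libraries and 23.1 to 28.0 in the WT libraries. It follows the most abundant markers, and Sparc alone was 12.2 RPKM in F266A IP 1. In that library Gata4 (0.695 RPKM), Dab2 (0.916), Gata6, Sox7, Pdgfra, Col4a1 and Col4a2 were above every empty vector and WT library. Sparc and Lamb1 were below all of them there, and Lama1, Sox17 and Foxa2 lay within their range. Foxa2 was listed at 0 in 5 of the 9 libraries. The ESC markers summed to 535 to 852 RPKM.

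Ribosomal protein genes were among the most abundant RNAs of every line. RPKM corrects read counts for library size and transcript length, so levels can be compared between genes whose reads match 1 place in the genome. The median member had a mean input level of 96.9 RPKM over the 3 lines, above 99.0% of the 9787 genes past the expression filter (at least 2 libraries with an RPKM of 1 or more), whose median was 2.49. Mitochondrial ribosomal protein genes, whose products build the ribosome of that organelle, had a median of 3.19. Members filled 42 of the 100 highest places in the mean input, and 67 of the 85 had a mean of at least 50 RPKM.

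The levels of members nevertheless spread widely, although the proteins are made in near-equal amounts. Rpl41, which encodes the smallest ribosomal protein, was highest, with 777 RPKM in the empty vector input, 729.8 in the WT input and 521 in the F266A input. Rps23, of the decoding centre, followed with 418, 367 and 253. Rpl4, an exit tunnel protein, had 271, 273 and 197. Rpl32 had a mean of 246 ± 58.0 (SD, n = 3 lines). The Rpl41 levels did not overlap with those of Rps23. Rps23 was above Rpl4 in each line but the ranges over lines overlapped, and Rpl4 and Rpl32 differed by less than their SD. The middle of the range was narrow, with the members between the 25th and 75th percentile at 64.5 to 147 RPKM.

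**Figure D1:**
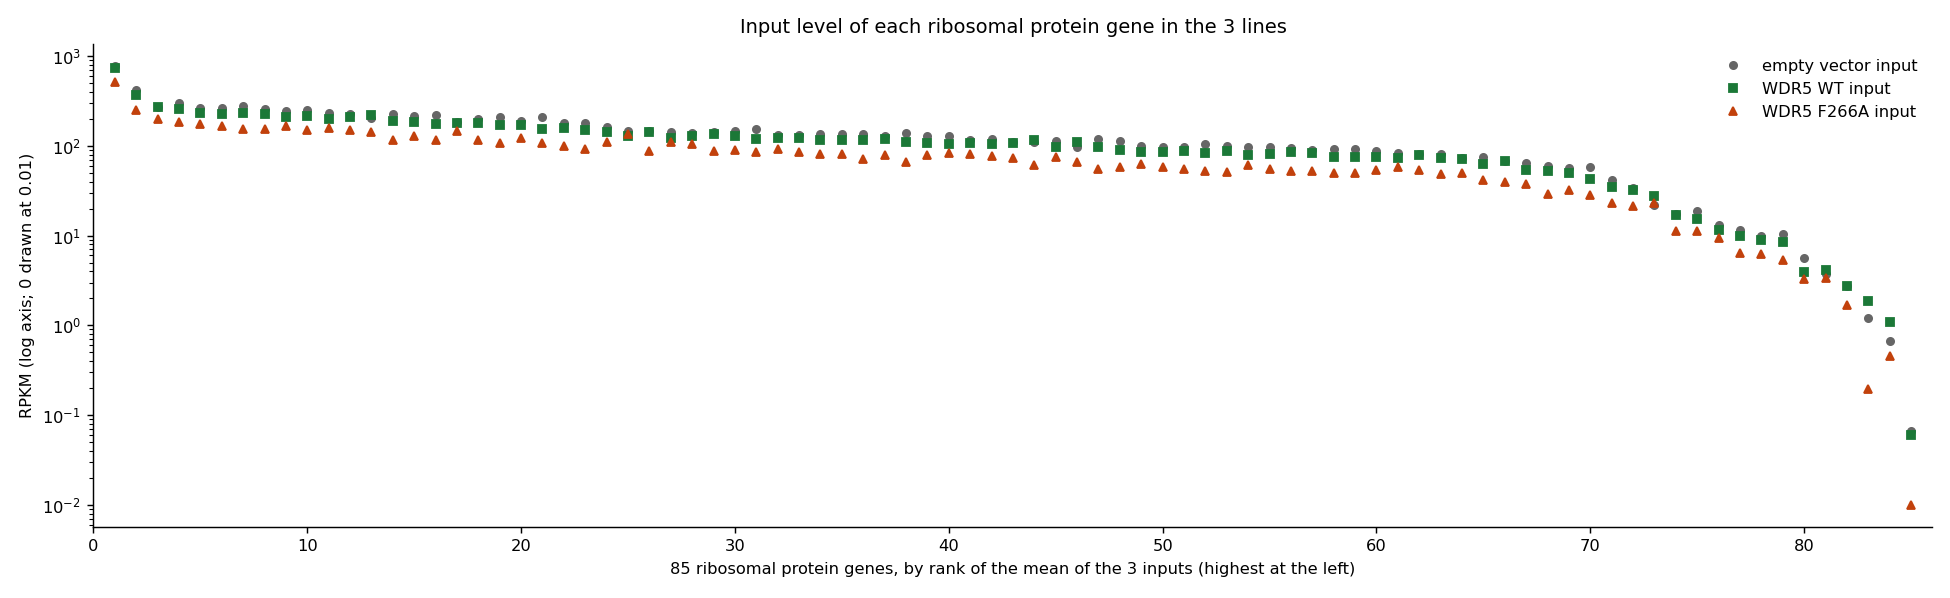
Input RPKM (log axis) of the 85 ribosomal protein genes, ordered by the mean of the 3 inputs, with 1 symbol per line. Most genes lie between 50 and 250 RPKM, and the F266A triangles lie below both other symbols for 82 of the 84 genes tested.

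Of the stalk genes and Rpsa, the laminin receptor precursor that sits on the small subunit, Rplp1 ranked highest, in place 19 of 85. The others were in the middle of the order. Rplp1 had a mean input of 162 ± 52.0 RPKM, Rpsa of 138 ± 25.9, Rplp2 of 106 ± 37.2 and Rplp0 of 78.8 ± 17.5 (SD, n = 3 lines). Rplp1 and Rplp2 form dimers on Rplp0, and the order Rplp1, Rplp2, Rplp0 held in each of the 3 inputs.

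The lowest members were of 2 kinds. Rpl3l at 0.0420 RPKM, Rpl10l at 0.736, Rpl39l at 1.1 and Rpl7l1 at 3.78 are paralogs. Rpl21 at 2.40 and Rpl7a at 4.27, with Rps2 at 8.38 and Rpl29 at 9.26, are single core genes of the ribosome. These 4 core genes had the most exact copies of their coding sequence elsewhere in the genome, as described below.

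Paralogs were mostly minor beside their parents. Rpl3l, known from heart and skeletal muscle, was at most 0.158% of Rpl3, was listed at 0 in the F266A input and rested on an estimated 5 reads or fewer in every library. A count of 0 there allows up to 0.0770 RPKM (3 reads). Rpl10l, known from the male germ line, lay between 0.274% and 0.584% of Rpl10. Rps4y2 lay between 5.42% and 9.13% of Rps4x, Rpl7l1 between 5.53% and 11.8% of Rpl7, and Rps27l, a p53 target, between 9.73% and 19.8% of Rps27. The pairs Rpl22 with Rpl22l1 (48.6% to 72.0%) and Rpl36a with Rpl36al (87.5% to 140.4%) were closer in level. Where coding sequences of a pair or their copies are near-identical, reads may have been divided between them: 100% of the 50-base stretches of Rpl36a and 81.6% of those of Rpl36al occurred elsewhere in mm9.

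The inputs differed between lines in a direction shared by nearly all members. For 82 of 84 members the F266A input held the lowest of the 3 levels, where 58.9% of all tested genes were. The median ratio of F266A to empty vector input over members was 0.605, and on the log2(RPKM + 1) scale the median difference was -0.71 against -0.12 for all tested genes. One exception was Rps27l, with 21.8, 27.9 and 23.0 RPKM in the empty vector, WT and F266A inputs. Against WT the median ratio was 0.686. The WT input was closer to the empty vector input, at a median ratio of 0.877. With 1 input a line these are values without a test. The share of members in all summed RPKM was 13.1% in the empty vector input, 12% in the WT input and 9.20% in the F266A input. In bulk samples, fewer cells of a type and less RNA per cell cannot be told apart.

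Other abundant genes differed less. Among 134 other genes with a mean input of at least 50 RPKM, a limit set after the values were seen, the median F266A minus empty vector input difference was -0.24, against -0.71 for members. Mitochondrial ribosomal protein genes had a median of 3.32 RPKM in the empty vector input, 3.37 in the WT input and 2.95 in the F266A input.

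Ribosomal protein mRNAs were higher in IPs than in inputs, in all 3 lines, the empty vector line included. In the limma fit with a term for line, 79 of 84 members had a higher level in IPs (Benjamini-Hochberg adjusted p under 0.05) and 0 a lower one. This share stands beside a background of 63.8% of the 9787 tested genes called higher and 0.511% called lower. The median difference was 0.48 on the log2(RPKM + 1) scale (1.39-fold) for members and 0.30 for all tested genes. Small-subunit genes had a median of 0.49 with 32 of 33 called, and large-subunit and stalk genes 0.46 with 47 of 51. Mitochondrial ribosomal protein genes had 0.40 with 63 of 76. The set of all tested genes is not matched to members in level, and the added 1 shrinks differences of low genes. With 0.1 added in its place, the medians were 0.48 for members and 0.41 for all tested genes, with 94.0% and 64.4% called higher. At a filter of 5 RPKM in 2 libraries the medians were 0.49 and 0.41, with 97.5% and 83.3% called higher. In the main fit, 91 of the 134 other abundant genes were called higher, at a median of 0.40. RPKM are relative to all mapped reads, and the IP libraries had higher RPKM over tested genes as a whole (medians of 3.28 to 3.38 against 2.32 to 2.58 in inputs). After centring each library on the median of tested genes, the members' median fell to 0.17 and 3 members (3.57%) were called higher, where 4.67% of all tested genes were. Under quantile normalization the median was 0.03 and 2 members (2.38%) were called higher, where 2.53% of tested genes were.

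Rpl36al had the highest IP minus input difference, 0.89 ± 0.11 (SE, limma adjusted p = 0.000461). Its input was 97, 111 and 66.5 RPKM in the empty vector, WT and F266A lines, and its IPs were 226 and 183, 185 and 167, and 115 and 145. All 6 IPs were above the input of their line. Rpl14, Rpl9 and Rpl37a were also among the highest, with 0.63 each.

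The 5 lowest members were Rpl7a, Rpl21, Rpl17, Rps2 and Rpl23a. Rpl7a, of the large subunit, had 5.61, 3.94 and 3.27 RPKM in the empty vector, WT and F266A inputs. Its IPs were 4.75 and 4.89 in the empty vector line, 4.53 and 4.57 in the WT line, and 2.30 and 3.32 in the F266A line. It was above its input in both WT IPs and below it in both empty vector IPs, and the fitted difference of -0.06 ± 0.10 did not pass the test (adjusted p = 0.575). Rpl21 and Rpl17 had 0.07 each, Rps2 had 0.16 and Rpl23a had 0.21. Of these Rpl23a alone passed the test (limma adjusted p = 0.0411), a call that was lost without empty vector IP 1, WT IP 2, F266A IP 2 or any 1 line (without the IPs, adjusted p of 0.0886, 0.0653 and 0.0826), and Rpl39l was the remaining member that did not (0.27 ± 0.14, adjusted p = 0.0996). Under quantile normalization or centring, Rpl21, Rpl17, Rps2 and Rpl23a were below 0.

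**Figure D2:**
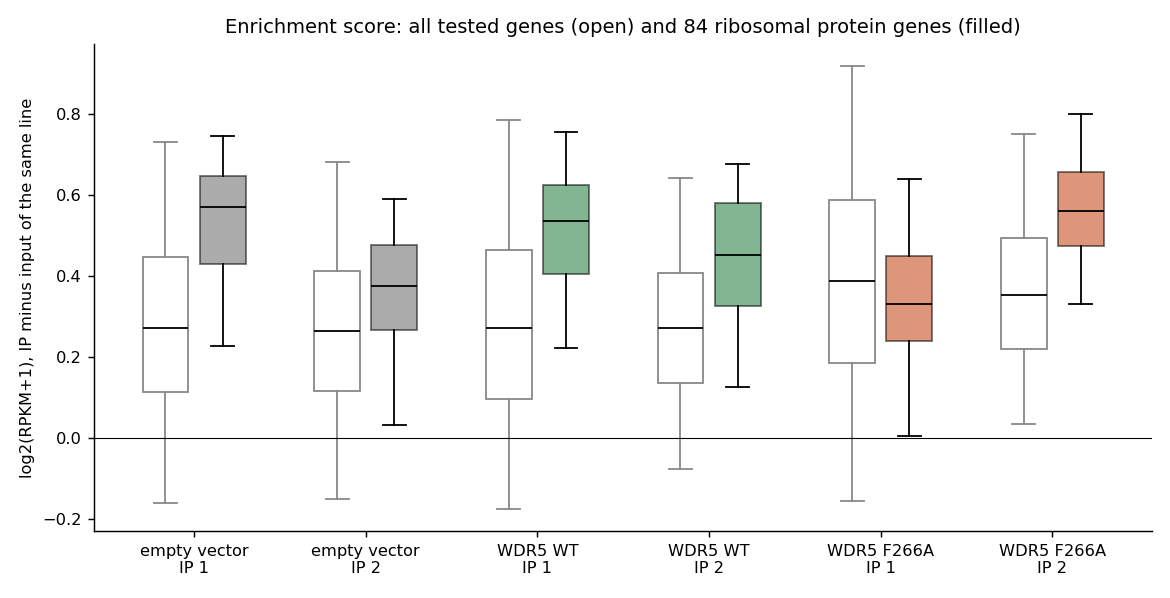
Enrichment score, log2(RPKM + 1) of an IP minus that of the input of its line, for all 9787 tested genes (open boxes) and 84 ribosomal protein genes (filled boxes). Lines in boxes are medians, boxes are quartiles and whiskers are the 5th and 95th percentiles. Members sit above all tested genes in 5 of the 6 IPs, and at a median of 0.33 against 0.39 in F266A IP 1.

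By library, the median score of members was 0.57 and 0.38 in the empty vector IPs, 0.54 and 0.45 in the WT IPs, and 0.33 and 0.56 in the F266A IPs. The medians of all tested genes were 0.27, 0.26, 0.27, 0.27, 0.39 and 0.35 in the same order. The distance between members and other genes was thus largest in an empty vector IP, which holds no tagged protein, and was turned around in F266A IP 1.

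No difference in score between lines passed the test. None of the 84 members passed the test for WT minus F266A, WT minus empty vector, WT minus the mean of both controls, or F266A minus empty vector enrichment, where 0.0% of the 9787 genes did in limma. At an unadjusted p under 0.05, 0 members and between 135 and 259 genes were below it in these 4 comparisons, which share libraries. The median over members was 0.04 for WT minus F266A and 0.02 for WT minus empty vector, with a median SE of 0.27. It was 0.05 for WT minus both controls and -0.01 for F266A minus empty vector. Without F266A IP 1 the sign of the median turned for WT minus F266A (-0.07), WT minus both controls (-0.01) and F266A minus empty vector (0.10), and 0 members were called. Without F266A IP 2 these medians were 0.16, 0.09 and -0.13. In limma the members with the smallest unadjusted p for WT minus F266A were Rpl21 (-0.58 ± 0.28, adjusted p = 0.9998), Rpl10l and Rpl7a. In limma those for WT minus empty vector were Rps27l (-0.36 ± 0.23, adjusted p = 0.99995), Rpl10l and Rpl7a. All failed the correction. For WT minus both controls they were Rpl10l, Rpl7a and Rpl36a, and for F266A minus empty vector Rpl21, Rps4y2 and Rpl39l. In simulated data this fit found 0 of 50 genes changed by 0.5 and 16 of 50 changed by 1, so a difference of 0.5 was not detectable with these libraries.

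The enrichment rule of the study asks that the lower WT score be above 0 and above all 4 scores of the control lines. It was met by 3 of 85 members, Rps19, Rpl28 and Rpl7a, beside a background of 4.79% of all gene symbols and 5.29% of the tested genes. Rps19, the small-subunit protein mutated in Diamond-Blackfan anaemia, had a lower WT score of 0.48 and a highest control score of 0.45. Rpl28 had 0.43 and 0.40. Rpl7a had the widest margin, 0.16 against 0.02. When the rule was asked of the F266A line instead, 6 members (7.06%) and 13.6% of all gene symbols met it. With the mean of the 3 inputs in place of each line's own, 0 members and 4.37% of symbols did. Leaving out an IP moved the 3 members to 13 (15.3%, against 5.91% of symbols) without empty vector IP 1, 7 (8.24%, against 13.9%) without WT IP 1, 29 (34.1%, against 13.4%) without WT IP 2 and 8 (9.41%, against 7.03%) without F266A IP 2. Without F266A IP 1, 3 members (3.53%, against 8.19%) met it.

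The levels in the IPs themselves, in contrast to the scores, differed between lines. In the F266A IPs, 51 of 84 members were lower than in the empty vector IPs (limma adjusted p under 0.05) and 0 were higher, beside a background of 3.38% of tested genes called lower and 1.16% called higher. The median difference was -0.72 for members (0.606-fold) and -0.00 for all tested genes. Both F266A IPs lay below both empty vector IPs for 80 of 84 members, where 28.6% of tested genes did, and below all 4 IPs of the other lines for 79, where 17.0% did. The exceptions to the last count were Rpl22l1, Rpl21, Rpl13, Rps27l and Rpl7l1. Both subunits shared the shift, with 20 of 33 small-subunit genes called lower (median -0.74) and 31 of 51 large-subunit and stalk genes (median -0.70). Under quantile normalization 9 members were called lower (10.7%, against 1.73% of tested genes) and the median was -0.31. With no filter on RPKM 0 members were called, and 2 of 20431 genes. Without F266A IP 1, which stands apart, 8 members were called lower (9.52%, against 2.75% of tested genes) and the median was -0.61. Without F266A IP 2, 30 were called lower (35.7%, against 2.02%) and the median was -0.83. Without empty vector IP 1 or IP 2 all calls of members were lost, at medians of -0.62 and -0.81. Without either WT IP fewer members were called than in the full fit. The median was below 0 in each of these fits, and the number of calls varied.

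**Figure D3:**
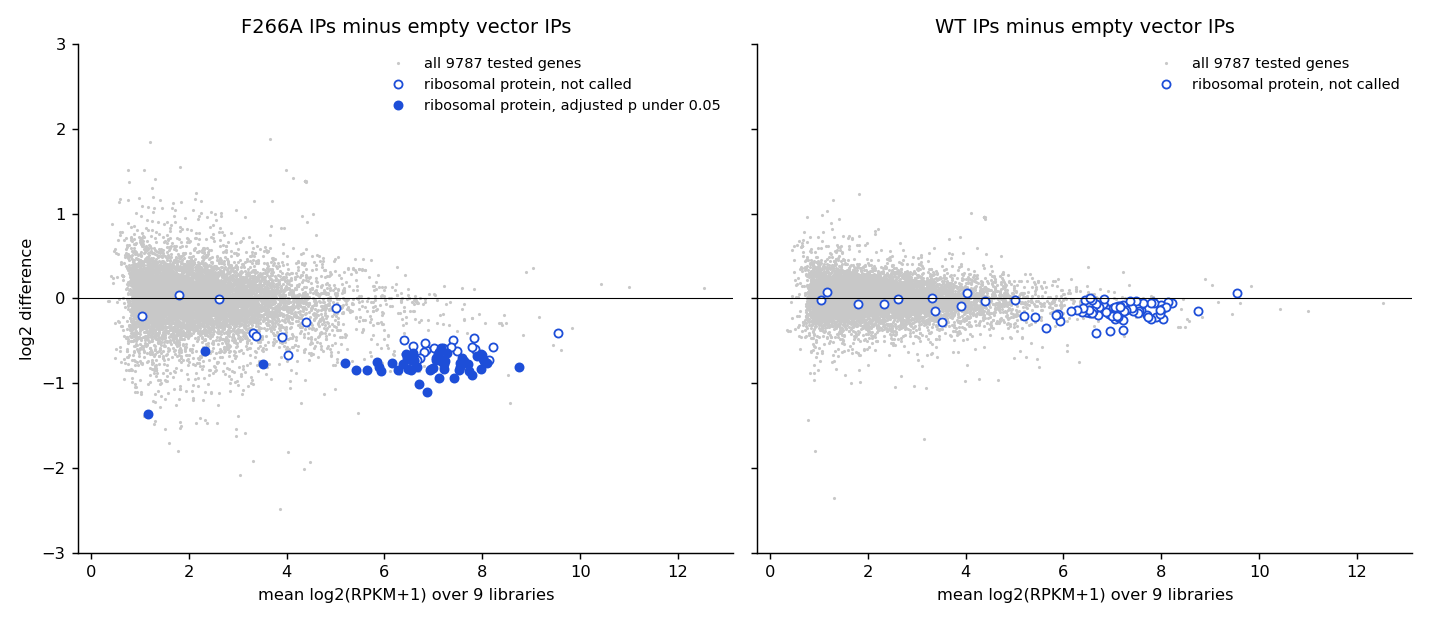
Log2 difference between IPs of lines against mean log2(RPKM + 1) for all 9787 tested genes (grey) and 84 ribosomal protein genes (blue, filled where the limma adjusted p is under 0.05). In the F266A comparison 83 of 84 members lie below 0 around a median of -0.72. In the WT comparison they lie around -0.13 and none is called.

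Of the called members, Rpl39l, Rpl37a, Rpl14, Rpl30 and Rpl39 had the largest differences. Rpl37a, a zinc-finger protein of the large subunit, had 196 and 164 RPKM in the empty vector IPs, 165 and 157 in the WT IPs, and 76.4 and 89.4 in the F266A IPs. The F266A values did not overlap with those of either other line. Its difference from the empty vector was -1.11 ± 0.15 (0.464-fold, adjusted p = 0.0130). Rpl14 had 171 and 147, 142 and 136, and 72.8 and 84.6 RPKM in the same order, and a difference of -1.01 ± 0.15 (adjusted p = 0.0153). Its window holds the longest pyrimidine run of those printed, 14 bases. Rpl30, which also represses its own splicing in yeast, had 219 and 191, 175 and 176, and 97.8 and 115 RPKM in the same order, and a difference of -0.94 ± 0.15 (adjusted p = 0.0192). Rpl39, of the exit tunnel, had a difference of -0.94 ± 0.16 (adjusted p = 0.0224). Rps27, of the small subunit, had the next largest, -0.90 ± 0.13 (adjusted p = 0.0151), from 336 and 323 RPKM in the empty vector IPs to 179 and 172 in the F266A IPs. The first 5 calls were lost without either empty vector IP, where the adjusted p lay between 0.0950 and 0.227, and that of Rpl39 also without F266A IP 1 (adjusted p = 0.0506).

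The largest difference belonged to Rpl39l, the paralog of Rpl39 known from the testis. Its RPKM was 1.21, 1.90 and 2.55 in the empty vector input and IPs, and 1.88, 2.02 and 2.77 in the WT input and IPs. In the F266A line it was 0.196, 0.0606 and 0.455, below all 6 libraries of the other lines. The F266A values rest on an estimated 6, 1 and 9 reads, against 28 to 65 reads in the others. The fitted difference was -1.37 ± 0.19 (limma adjusted p = 0.0148). All F266A values were below 1 RPKM, so the gene passed the expression filter only through empty vector and WT libraries. The filter thus admitted it by the lines where it was high, and its p-value is not independent support. Rpl39l was 1.27% of Rpl39 or less in every library.

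The other paralogs tested did not pass the test. Rps27l had 36.4 and 36.2 RPKM in the empty vector IPs and 32.8 and 34.1 in the F266A IPs, a difference of -0.11 ± 0.13 (adjusted p = 0.671), where Rps27 was called lower. Rpl7l1 had 6.22 and 5.69 against 6.0 and 5.80 RPKM (-0.01 ± 0.12, adjusted p = 0.974), where Rpl7 was called lower at -0.76 ± 0.15 (adjusted p = 0.0368). Rpl22l1 (-0.28 ± 0.16), Rpl10l (-0.21 ± 0.13) and Rps4y2 (-0.44 ± 0.14) did not pass the test, where Rpl22, Rpl10 and Rps4x were called lower at -0.76, -0.67 and -0.83. Rpl36al (-0.65 ± 0.17, adjusted p = 0.0727) and its parent Rpl36a (-0.83 ± 0.20, adjusted p = 0.0567) both missed the threshold, as did Rpl3 (adjusted p = 0.0754). The difference between a paralog and its parent was itself not tested. Rpl10l lies near 1 RPKM, where the added 1 shrinks differences.

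**Figure D4:**
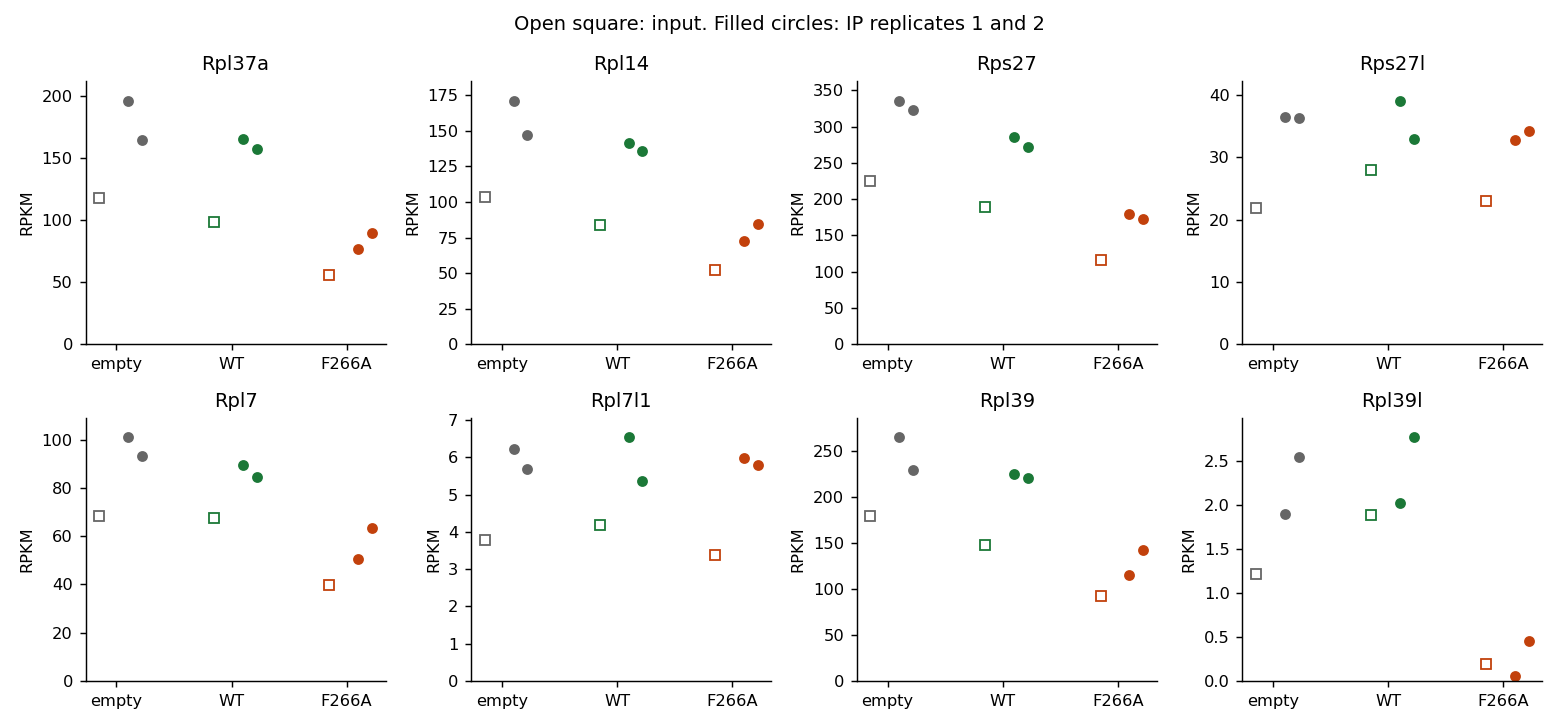
RPKM of 8 ribosomal protein genes in the input (open square) and IP replicates 1 and 2 (filled circles) of each line. The F266A symbols of Rpl37a, Rpl14, Rps27, Rpl7 and Rpl39 lie below those of the other lines in the same fraction, those of Rps27l and Rpl7l1 lie close to them, and those of Rpl39l lie at 0.455 or less.

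The stalk genes were unequal in the test but not in direction. Rplp2 was called lower in the F266A IPs at -0.85 ± 0.15 (adjusted p = 0.0295) and Rplp1 at -0.81 ± 0.18 (adjusted p = 0.0460). Rplp0, at -0.56 ± 0.20 (adjusted p = 0.170), and Rpsa, at -0.62 ± 0.15 (adjusted p = 0.0563), did not pass. Rplp0 IPs held 134 and 105 RPKM in the empty vector line, 143 and 97 in the WT line, and 82.1 and 78.4 in the F266A line, so that both F266A IPs were lowest although replicates of the other lines were far apart.

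Against the WT IPs the F266A IPs were shifted the same way, and the comparison shares the F266A libraries with the one above. WT IPs were higher for 3 of 84 members, beside a background of 0.777% of tested genes called higher and 0.388% called lower. These were Rpl39l (1.44 ± 0.19, limma adjusted p = 0.0319), Rpl37a (0.95 ± 0.15, adjusted p = 0.0352) and Rpl14 (0.81 ± 0.15, adjusted p = 0.0451). Rpl39l had passed the expression filter only through the lines where it was high. The median over members was 0.56 and that of all tested genes 0.01, and 74 members had an unadjusted p under 0.05, where 15.5% of tested genes did. Both F266A IPs lay below both WT IPs for 80 of 84 members, where 23.3% of tested genes did. Without F266A IP 1 the median was 0.45, and without F266A IP 2 it was 0.70. Each of these fits holds 1 F266A IP, so only the size of the difference is given. Without any 1 of the 4 empty vector and WT IPs, 0 members and 0 of all 9787 genes were called.

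WT and empty vector IPs did not differ in the test. In limma 0 members and 0.0% of tested genes were called in either direction, while 1 member and 557 genes had an unadjusted p under 0.05. The median over members was -0.13 with a median SE of 0.15. Rps28 (-0.37 ± 0.14, unadjusted p = 0.0290, adjusted p = 0.841), Rpl29 and Rps27a had the smallest p and failed the correction. Both WT IPs lay below both empty vector IPs for 29 of 84 members, where 17.8% of tested genes did.

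Lower values in the F266A line were found in both fractions. Across 84 members the median difference from the empty vector was -0.72 in IPs and -0.71 in the input. The differences of single members in the 2 fractions, which come from the same pair of lines, had a Pearson r of 0.75 and a Spearman rho of 0.80 across genes, which are not independent replicates. In F266A IP 1, 82 of 84 members lay below all 4 IPs of the other lines (background 26.7%). In F266A IP 2, 79 did (background 33.6%). The median member was also lower in F266A IP 1 (91.4 RPKM) than in IP 2 (106 RPKM), with 77 of 84 members (91.7%) and 43.0% of all tested genes lower in the former. Markers of the ESC state were also lower in value in F266A than in empty vector IPs. Of 10, 8 had a difference below 0, at a median of -0.29, and Pou5f1 was called lower at -0.83 ± 0.18 (limma adjusted p = 0.0434). Of the 7 endoderm markers tested 6 were above 0 and 0 were called. Gata4, Dab2 and Col4a1 reached 1 RPKM only in F266A libraries, and Col4a2 elsewhere only in WT IP 1. The expression filter thus admitted these markers by the line where they were high, so their direction is not independent support. Of the fibroblast markers Fbln1 was called lower at -0.63 ± 0.12 (limma adjusted p = 0.0374) and Thy1 was at -0.36 ± 0.21. The part of these cell types and of clone identity in the lower levels was not tested.

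Genes of the same pathway give the setting. Of 3 ribosomal protein genes under other symbols, 2 were called lower in F266A than in empty vector IPs, Fau (-0.85, adjusted p = 0.0196) and Gnb2l1 (-0.70, adjusted p = 0.0392). Of 17 other TOP mRNAs, which encode translation factors and other proteins, 2 were called lower and 0 higher, with a median of -0.45. Vim, which does not encode a translation factor, had the largest difference (-0.76 ± 0.12, limma adjusted p = 0.0192). Naca had the smallest, -0.03 ± 0.11.

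Genes that build ribosomes rather than form them had medians near 0. Of 35 ribosome biogenesis genes, 0 were called either way at a median of -0.00, and 17 of them had a difference above 0. Ncl had the lowest value (-0.24 ± 0.13, adjusted p = 0.350) and Nob1 the highest (0.27 ± 0.13, adjusted p = 0.298). Of 13 RNA polymerase I genes, Polr1c was called lower (-0.64 ± 0.13, adjusted p = 0.0368) and Polr1a higher (0.74 ± 0.13, adjusted p = 0.0263), at a median of 0.06. Of 13 genes of TOP mRNA control, from Mtor (-0.24 ± 0.14) to Eif4ebp1 (0.32 ± 0.15) and with Larp1 at 0.05 ± 0.13, 0 were called. Of 76 mitochondrial ribosomal protein genes, 3 were called higher (Mrpl53 the most, 0.81 ± 0.18, adjusted p = 0.0495) and 1 lower (Mrps5, -0.51 ± 0.11, adjusted p = 0.0457), at a median of -0.02. The 134 other abundant genes had a median of -0.15 with 15 called lower.

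Members with and without a pyrimidine run in the window around the annotated start had close medians. The median difference of F266A from empty vector IPs was -0.72 over the 33 members with a run of at least 7 bases and -0.70 over the 30 tested members with a shorter one. Among the printed starts, Rps27l has a run of 7 bases like Rpl39l, and Rpl7l1 has none longer than 2.

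Ribosomal protein genes have given rise to many processed pseudogenes in mammals, and reads were mapped to the genome. Of the 84 members found in the mm9 annotation, the median had 89.2% of its coding 50-base stretches present elsewhere in the genome, and 28 had 100%. The median was 0% for mitochondrial ribosomal protein genes and for ribosome biogenesis genes, and 32.7% for the other TOP mRNAs. Rpl21, Rpl7a, Rps2, Rpl29 and Rpl35a had the most copies, with medians of 20, 16, 15, 14 and 9 other matches per stretch. Their mean input levels were 2.40, 4.27, 8.38, 9.26 and 46.1 RPKM, below the median member, and 4 of them were among the 9 lowest members. How reads with several matches were counted is not given in the sources used here. Levels of such members may therefore be understated, and a ranking of members by RPKM is uncertain for them. Over 50% of stretches occurred elsewhere for 68 of the 84 members, so most levels depend in part on how such reads were counted. Rpl41, the highest member, was not found in the annotation and has no value here.

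**Figure D5:**
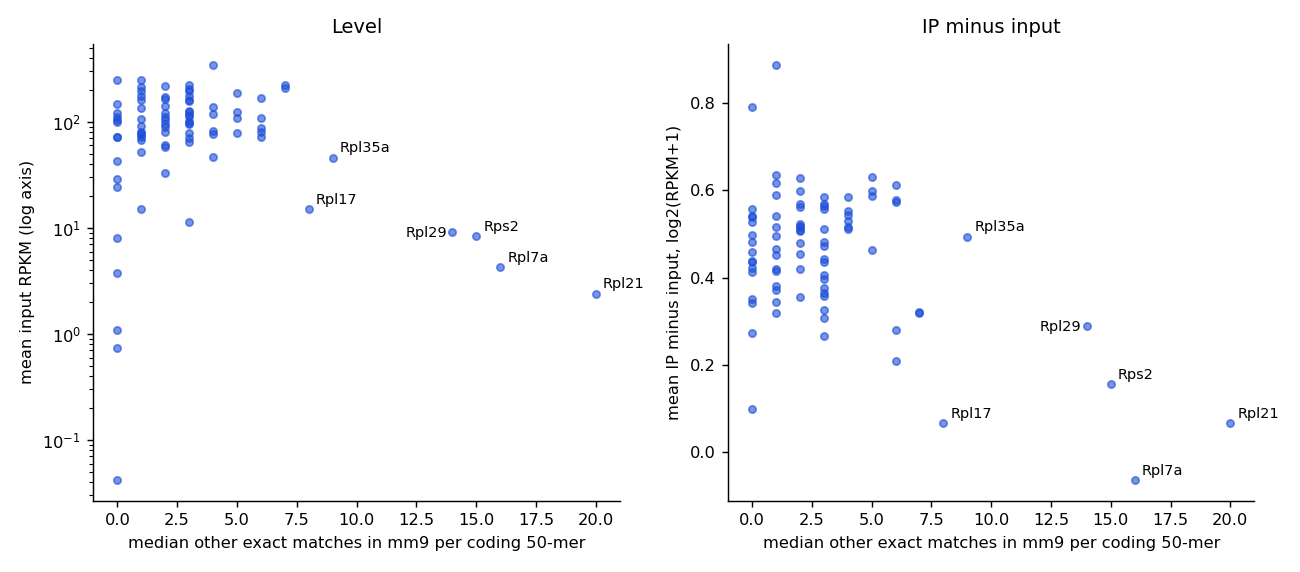
Mean input RPKM (left, log axis) and mean IP minus input (right) of 84 ribosomal protein genes against the median number of other exact matches in mm9 of their coding 50-base stretches. The 4 genes with 14 to 20 matches lie below 10 RPKM and at most at 0.29 in IP minus input.

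The number of copies ran with IP minus input at a Pearson r of -0.48 and a Spearman rho of -0.09 across 84 members, so that the relation rests on the few genes with many copies. Of the 15 tested members with at most 50% of stretches elsewhere, 10 were called lower in F266A than in empty vector IPs (median -0.64). This was 66.7%, against 60.7% of all members and 3.38% of all tested genes. Rpl39l is 1 of the 10, and it passed the expression filter only through the lines where it was high. Rps3 (8.05%), which lines the mRNA entry channel, was called at -0.70 ± 0.15 and Rpl8 (8.83%) at -0.63 ± 0.14. Rps3 and Rpl8 were chosen for their few copies.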

How the data were processed

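RIPiT-seq libraries of 3 ESC lines (2 IPs and 1 input each) were grouped by their labels. Per the labels and methods, reads were aligned by the authors to the mm9 genome using TopHat (version 1.1.3), and the deposited RPKM of each gene symbol came from a script of their own. RPKM are already divided by transcript length and mapped reads, and the handling of reads with several matches is not given in the sources used here. Columns not mapped to a sample numbered 0.

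On log2(RPKM + 1), lmFit and eBayes with trend (limma 3.58.1, R 4.3.3) tested the 9787 genes that had RPKM 1 or more in 2 or more of the libraries. Members passing this filter numbered 84 (Rpl3l did not). P-values were adjusted over all genes by Benjamini-Hochberg, and under 0.05 was called. The design had line plus fraction for IP minus input and 1 coefficient per line and fraction otherwise. Log differences of low genes are understated. The fits were tested on simulated data. Depth came from the value of 1 read in low RPKM, with lengths from GENCODE M1 for 21046 symbols, and covers counting error only.

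Stretches of 50 bases of coding sequence were matched exactly to both strands of mm9 (Python 3.11.15, numba 0.67.0). Promoters were RefSeq's. Members, lists and the rule for naming genes (highest and lowest input level and IP minus input, paralogs, stalk, called members with the largest differences, members meeting the enrichment rule) were chosen with earlier results of these data known. Genes outside this rule (Rps27, Rps3, Rpl8, Rpl13, Rpl29, Rpl35a, Larp1) were named after their values were seen. Some genes named by the rule are not reported here. The main fits did not pair IPs by replicate number.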

Additional observations from a re-analysis of the deposited data

Results flagged for a closer look

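Rpl7a scores were above 0 in both WT IPs (0.16 and 0.17) and below 0 in both empty vector IPs (-0.20 and -0.17), a difference of 0.35 between the lines' means that was not tested on its own and failed limma's correction. Rpl21 scores were below 0 in both WT IPs (-0.25 and -0.05) and above 0 in both F266A IPs (0.52 and 0.33), a difference of -0.58 under the same limits. Both genes have many exact copies of their coding sequence in the genome, and the part of these copies was not tested.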

How the results depend on the processing

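Members called lower in F266A than in empty vector IPs numbered 51 as reported. They were 0 with no filter on RPKM (2 of 20431 genes called in all), 9 under quantile normalization, and 0 to 30 when 1 IP was left out (0 without either empty vector IP, 19 without either WT IP, 8 without F266A IP 1 and 30 without F266A IP 2). The members' median stayed below 0 throughout, at -0.31 under quantile normalization and -0.61 to -0.83 with 1 IP left out. Members called higher in WT than in F266A IPs numbered 3 as reported (3.57%, against 0.777% of tested genes) and 0 with no filter. They numbered 5 with an RPKM of at least 5 (6.25%, against 1.45%) and 1 under quantile normalization (1.19%, against 0.45%). Without a trend in eBayes they numbered 6 (7.14%, against 0.848%). With 1 IP left out, the members' median difference was 0.45 to 0.70. Among members with few copies, an alternative chosen after seeing the data, 6.67% (1 of 15) were called higher in WT than in F266A IPs. The share was 3.57% of all members and 0.777% of tested genes. The 1 member was Rpl39l, which passed the expression filter only through the lines where it was high. Members higher in IPs than inputs numbered 79 as reported (94.0%, against 63.8% of tested genes). They numbered 2 under quantile normalization (2.38%, against 2.53%) and 3 with centred libraries (3.57%, against 4.67%). With 1 IP or line left out they numbered 66 (78.6%, against 41.5%, without the empty vector line) to 80 (95.2%, against 66.8%, without F266A IP 1). IP minus input reversed for Rpl21 (-0.23 under quantile normalization, -0.24 centred, -0.12 without the F266A line), Rpl17 (-0.37, -0.24, and -0.0045 to 0.16 with 1 IP left out, the lowest without F266A IP 2, and -0.048 without the WT line), Rps2 (-0.26 and -0.15) and Rpl23a (-0.20 and -0.10). Members meeting the enrichment rule numbered 3 as reported, 0 with the mean of the 3 inputs, 6 with F266A in the place of WT, and 3 to 29 with 1 IP left out (13 without empty vector IP 1, 7 without WT IP 1, 29 without WT IP 2 and 8 without F266A IP 2), while the share of all gene symbols meeting it went from 4.79% to between 5.91% and 13.9% with 1 IP left out. The 4 enrichment comparisons and WT against empty vector IPs had 0 called members under every alternative. The median input level was 96.9 RPKM and 96.3 RPKM after scaling inputs to the same median.

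The correlation of same-numbered IPs' deviations was 0.26 for WT and F266A, 0.11 for WT and empty vector and 0.01 for F266A and empty vector. Whether IPs of the same number were processed together is not given in the labels. With the replicate number as a block, 59 members (70.2%, against 4.42% of tested genes) were called lower in F266A than in empty vector IPs. In the same fit 4 (4.76%, against 1.1%) were called higher in WT than in F266A IPs. Called higher in IPs than inputs were 80 (95.2%, against 66.3%). Each line had 1 input, so line differences in input were not tested. Rpl39l, Rpl10l and Rpl3l rest on few reads. In simulated data, 12 of 50 genes changed by 0.5 and 49 of 50 changed by 1 were found between F266A and empty vector IPs.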
